A study of Mus musculus with 10 samples.

Results

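Other proteins help odorant receptors to fold in the endoplasmic reticulum (ER) of olfactory neurons, to reach the cell surface and to signal. Described here are 7 genes that code for such proteins or their relatives: Rtp1, Rtp2, Reep1, Reep6, Ric8b, Hspa5 and Calr. They were chosen by name, with earlier results of these data known. On the array each had exactly 1 probe set that carried its symbol alone, which gave 7 probe sets of the 23194 that were tested and of the 35556 on the array. The comparison asks whether forced expression of the histone variant H2BE in mature olfactory neurons goes with a change in RNA from these genes. None of the 7 genes passed the test for a change. Their differences between genotypes lay between -0.11 and 0.06 on the log2 scale, and no 95% interval reached beyond a fall to 0.850-fold or a rise to 1.17-fold.

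The RNA came from mice 5 weeks of age and from their whole main olfactory epithelium (MOE), the tissue in which odors are detected. The 4 H2be-GF arrays were made from mice that carry a FLAG-tagged H2BE under the promoter of olfactory marker protein (Omp), in addition to their own H2be genes. All of these mice descend from 1 transgenic founder line crossed to C57Bl/6, and the study describes the transgene as silent in a band of mature neurons near zone 2. The 6 WT arrays came from wild-type mice, and every array, whatever its genotype, was a pool of RNA of several animals, with fewer of them in a WT pool. By the series' account males and females contributed equally. Beyond the replicate number the labels say nothing of how pools of a genotype differ, and p-values therefore reflect only the spread among them.

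Values are log2 signals per probe set. Medians of the arrays were 7.74 to 7.91, and correlations between arrays were 0.969 to 0.988. Xist, which female cells use to silence an X chromosome, split the arrays into a high set (5 arrays, 11.69 and up) and a low set (5 arrays, 4.61 and down). Each set held 2 H2be-GF and 3 WT arrays. The series describes an equal contribution of the sexes, and no label gives the sex of an array. The probe set of the H2BE gene itself, listed as H2bc21, was lower in H2be-GF than in WT arrays (11.84 ± 0.07, SD, n = 4, against 12.07 ± 0.05, SD, n = 6, limma adjusted p = 0.297). It is not known whether its probes detect the transgene. By quantitative PCR the study reports transgene expression in this line well above that of the endogenous gene. The tissue label is borne out by the mature neuron markers below, all of which averaged 9.59 or above.

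Receptor-transporting proteins (RTP1 and RTP2) and a receptor expression-enhancing protein (REEP1) were found as factors that raise the amount of odorant receptor on the surface of cultured cells. REEP6 belongs to the same family as REEP1. RIC8B is a chaperone and exchange factor of the olfactory G protein subunit, through which receptors signal once they reach the cilia. HSPA5, also called BiP, is the main HSP70 chaperone of the ER and holds unfolded proteins, and calreticulin (Calr) is an ER lectin that retains glycoproteins until they are folded. Both are induced when unfolded protein accumulates, a state that olfactory neurons pass through when they first express a receptor.

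The ER stress element, the promoter motif through which unfolded protein raises chaperone genes, was looked for because it links Hspa5 and Calr by sequence. Promoter windows of 300 bases from RefSeq (GRCm38.p6), which run from 250 bases before to 50 bases after the gene start, matched 5 of the 7 genes. Rtp1 and Reep6 had no entry. The motif reads CCAAT, a gap of 9 bases, then CCACG, and was searched on both strands. It was held by 37 of 27025 genes (0.137%), and among the 5 by Hspa5 and Calr. The stretches that hold it are shown 5′ to 3′ on the strand of each gene, with the fixed letters of the motif in capitals.
Hspa5 (chr2:34772020-34772048, plus strand, motif beginning 65 bases before the start): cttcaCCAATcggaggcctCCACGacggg
Calr (chr8:84847070-84847098, minus strand, motif beginning 162 bases before the start, on the opposite strand, and thus read as its reverse complement): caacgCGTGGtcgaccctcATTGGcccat

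Of the other motifs searched, the core CCCNNGGG of sites bound by Olf-1/EBF factors stood in the windows of Hspa5, Reep1 and Rtp2. These factors act at many genes of olfactory neurons, and the core was held by 15.4% of all genes. The homeodomain core TAATTA was held by none of the 5 and by 6.12% of all genes. The Olf-1/EBF cores are shown in the same way, since they are the motif that Rtp2 and Reep1 share, with the fixed letters in capitals.
Rtp2 (chr16:23930984-23931001, minus strand): gtcagCCCatGGGttgga
Reep1 (chr6:71707611-71707628, plus strand): gccctCCCtgGGGgttcg
Hspa5 (chr2:34771911-34771928, plus strand): gtcagCCCggGGGgcgta
A match describes these letters only and says nothing of binding.

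Rtp1 (probe set 10434773, chromosome 16) was the only member whose genotypes did not overlap. Its log2 signal was 11.75, 11.71, 11.80 and 11.82 on H2be-GF arrays 1 to 4, and on the 6 WT arrays it ran from 11.83 through a median of 11.86 to 11.96. All 4 H2be-GF arrays thus lay below all 6 WT arrays, though the highest H2be-GF and the lowest WT value were only 0.0048 apart. The H2be-GF mean was 11.77 ± 0.05 (SD, n = 4) and the WT mean 11.88 ± 0.06 (SD, n = 6), which is 0.927-fold (log2 difference -0.11, SE 0.06, 95% interval -0.23 to 0.02). Limma gave an adjusted p of 0.648 over all probe sets and an unadjusted p of 0.0793. A two-sided exact permutation test, with all 210 ways to split the arrays, gave p = 0.0190, where 0.00476 is the smallest that these arrays allow. Of all probe sets tested, 65.1% had a smaller difference, a comparison of size that leaves spread aside. By unadjusted limma p, Rtp1 ranked 2836 among the 23194.

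Rtp2 (probe set 10438733), the close relative of Rtp1 on the same chromosome, showed no such separation. Its H2be-GF arrays stood at 11.32, 11.26, 11.27 and 11.22, and its WT arrays ran from 11.16 through 11.34 to 11.37. The WT range enclosed that of H2be-GF. The log2 difference was -0.03 (SE 0.06, 95% interval -0.17 to 0.11, limma adjusted p = 0.935). Whether probes of Rtp1 and Rtp2 read each other's RNA is not known, since probe sequences were not used here.

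The REEP members, which belong to a family of proteins that shape ER tubules, also overlapped. Reep1 (probe set 10539017, chromosome 6) stood at 10.09, 9.95, 9.997 and 9.83 in H2be-GF, and in WT it ran from 9.76 through 9.88 to 10.06. The array H2be-GF 1 lay above all WT arrays and H2be-GF 4 below their median. The difference of 0.06 (SE 0.07, 95% interval -0.10 to 0.23) was the highest among the 7 genes and did not pass the test (limma adjusted p = 0.855). Reep6 (probe set 10364784, chromosome 10) had the widest spread of the members, with 9.78, 9.68, 9.60 and 9.83 in H2be-GF and 9.54 through 9.72 to 9.91 in WT. Its difference was -0.01 (SE 0.08, 95% interval -0.18 to 0.17, limma adjusted p = 0.987).

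Ric8b (probe set 10365408, chromosome 10) was lower on average in H2be-GF and far less even there. Its H2be-GF arrays stood at 12.46, 12.29, 12.51 and 12.41, while the 6 WT arrays ran from 12.46 through 12.52 to 12.54. H2be-GF 3 lay within the WT range, H2be-GF 1 just under it, H2be-GF 4 further below and H2be-GF 2 lowest. The SD of the H2be-GF arrays was 0.0944 (n = 4) and that of the WT arrays 0.0277 (n = 6), a contrast that was not tested. The difference was -0.09 (SE 0.06, 95% interval -0.22 to 0.04, 0.938-fold), with a limma adjusted p of 0.701 and an exact permutation p of 0.0238. Without H2be-GF 2 it was -0.05.

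The ER chaperones did not differ between genotypes beyond their spread. Hspa5 (probe set 10471586, chromosome 2) stood at 12.36, 12.26, 12.28 and 12.27 in H2be-GF, all inside the WT range of 12.18 to 12.41 with its median of 12.34. The difference was -0.03 (SE 0.06, 95% interval -0.17 to 0.11, limma adjusted p = 0.932). Calr (probe set 10580219, chromosome 8) stood at 11.67, 11.55, 11.44 and 11.39 in H2be-GF, which spans nearly the whole WT range of 11.38 through 11.52 to 11.60. H2be-GF 1 was the highest of all 10 arrays for Calr. The mean difference was 0.01 (SE 0.07, 95% interval -0.16 to 0.17, limma adjusted p = 0.989), the smallest among the members.

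**Figure D1:**
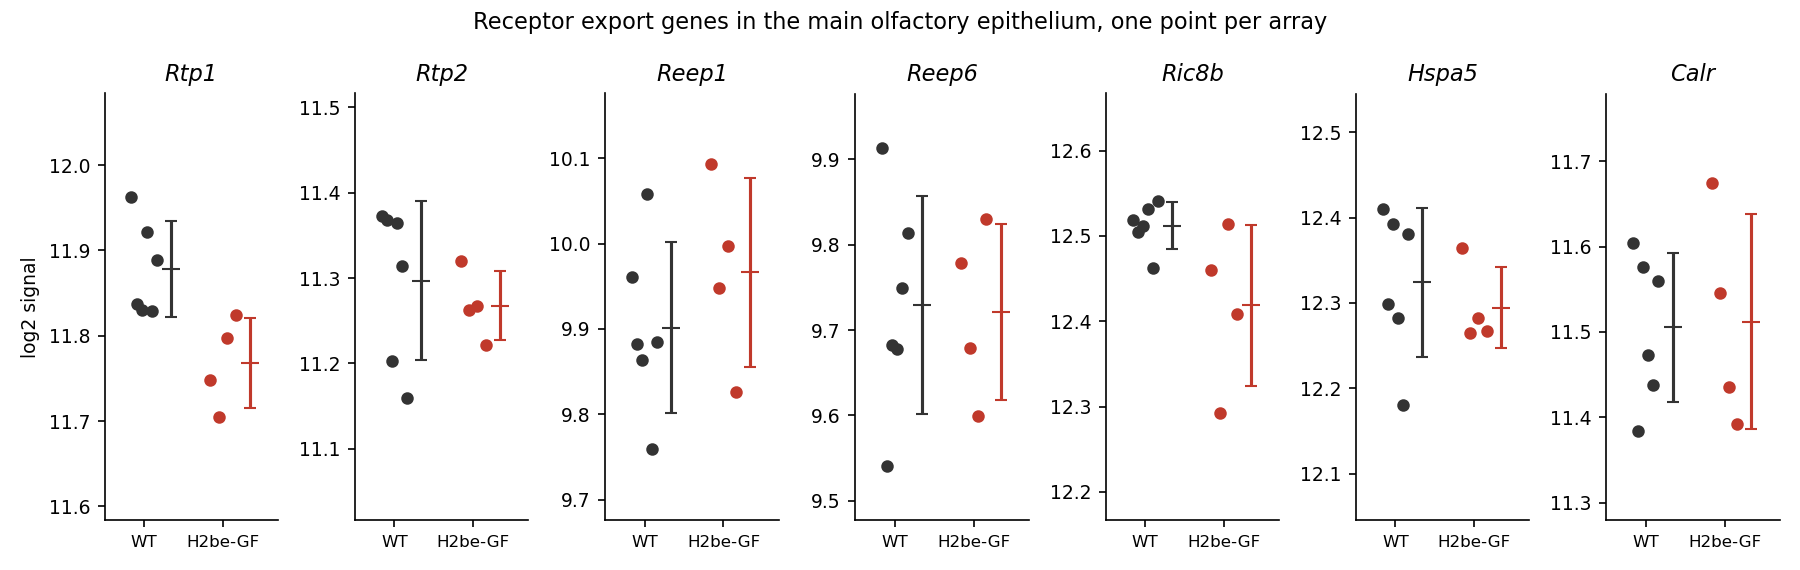
Log2 signal of each of the 7 genes by array, dark for WT (6 arrays) and red for H2be-GF (4 arrays). Means with SD bars stand next to the points. Each panel spans 0.5 log2 units, and levels are not comparable between panels. The red points lie below the dark ones in the Rtp1 panel only, by 0.0048, and the H2be-GF points of Ric8b spread more widely (SD 0.0944) than its WT points (SD 0.0277).

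Over the 7 genes, limma called 0, where it called 20 of the 23194 tested (0.0862%, made up of 0.0474% higher and 0.0388% lower in H2be-GF). At an unadjusted p under 0.05 limma also counted 0 of the 7, against a background of 8.43% (4.35% higher, 4.07% lower). With a trended robust variance 2 of the 7 were under it, Rtp1 at 0.0261 (limma adjusted p = 0.482) and Ric8b at 0.0369 (limma adjusted p = 0.524). That variance put 2077 of the 23194 tested under 0.05. The exact permutation test was under 0.05 for 2, Rtp1 and Ric8b, both lower, against a background of 9.15% (4.98% lower). Ranges were separate for 1 of the 7, and for 2.89% of what was tested (1.29% higher, 1.6% lower as Rtp1 was). The median change of the members was -0.03, with 5 lower and 2 higher, and that of all probe sets was 0.01, with 47.4% lower. The members were bright, with means of 9.73 to 12.47, and even: their residual SDs ran from 0.0547 for Rtp1 to 0.119 for Reep6, where the median over all probe sets was 0.147. For Rtp1 only 1.62% and for Ric8b only 2.88% of probe sets had a smaller residual SD.

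The direction was the same in the arrays high and low in Xist for 5 of the 7 genes. Rtp1 differed by -0.15 in the arrays high in Xist and by -0.07 in the others, and Ric8b by -0.14 and -0.05. Rtp2 gave -0.02 and -0.04, Hspa5 -0.05 and -0.01, and Reep1 0.12 and 0.01. For Reep6 (0.02 and -0.03) and Calr (0.09 and -0.08) the sign turned. Limma's interaction of genotype and Xist set called none of the 7, with unadjusted p-values of 0.280 or above (2.92% of all probe sets were under 0.05).

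Markers of mature olfactory neurons, the cells that carry receptors and that drive the transgene, were lower in H2be-GF arrays by about as much as Rtp1 and Ric8b. Their mean over 10 markers was 11.74, 11.71, 11.74 and 11.74 on H2be-GF arrays 1 to 4 and ran from 11.80 to 11.87 on WT arrays, with no overlap and a difference of -0.10. Their summed linear signal was 40571 to 42754 in H2be-GF and 43837 to 46394 in WT. Of the 10 markers 9 were lower, with a median change of -0.11, and 0 were called. None passed limma's adjustment over all probe sets, and 3, all lower, had an unadjusted p under 0.05. Of all probe sets tested 4.07% were lower at that threshold. S100a5, which codes for a calcium-binding protein of mature neurons, was at -0.21 (SE 0.06, limma adjusted p = 0.380), and Cidea was at -0.21 (SE 0.08, limma adjusted p = 0.465). Omp is also among the 10 markers, and the study built the transgene from the Omp gene with its coding sequence replaced. Whether the Omp probe set reads RNA of the transgene is not known. In whole tissue, fewer neurons and less RNA per neuron cannot be told apart.

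Set against that marker mean on the same array, Rtp1 was at 0.04 ± 0.04 (H2be-GF, SD, n = 4) against 0.05 ± 0.04 (WT, SD, n = 6), a difference of -0.01 (exact permutation p = 0.748). Ric8b likewise differed by 0.01 (exact permutation p = 0.810), and its H2be-GF spread stayed wider, at an SD of 0.0804 (n = 4) against 0.0174 (n = 6). On this scale the genotypes of Rtp1 overlapped. The scale moved the median of all probe sets to 0.11, so the other members came out higher than zero: Rtp2 by 0.07, Hspa5 by 0.07, Reep6 by 0.09 and Calr by 0.11, with exact permutation p-values of 0.152 to 0.262. Reep1 was higher by 0.16 (exact permutation p = 0.0238) with overlapping genotypes, which is 1 of 7 members where 18.5% of all probe sets were under 0.05 (17.7% higher). Relative to the median of all probe sets, on either scale, Rtp1 stood at -0.12, Ric8b at -0.10 and Reep1 at 0.06.

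**Figure D2:**
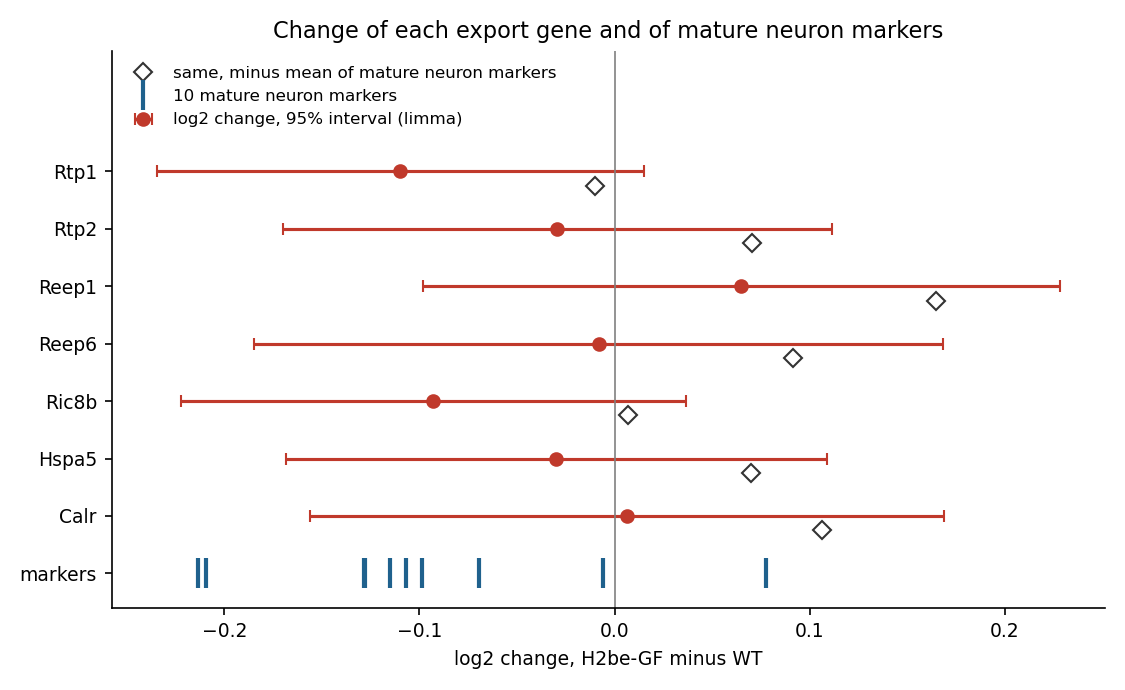
Log2 change (H2be-GF minus WT) of each gene with its 95% interval from limma (red) and the same change after subtraction of the mean of 10 mature neuron markers (open diamonds, no interval drawn). Blue bars in the bottom row are the changes of the single markers, with a median of -0.11. Every red interval includes 0, and the diamonds of Rtp1 and Ric8b lie at -0.01 and 0.01.

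The summed signals of other cell types overlapped between genotypes, though the markers of ciliated respiratory cells were also lower on average. The summed signal of 8 immature neuron markers was 14067 to 15292 in H2be-GF and 14166 to 16064 in WT, with Stmn4, a stathmin, at -0.17 without overlap (limma adjusted p = 0.522) and Crmp1 at 0.12. For 5 markers of sustentacular cells, the supporting cells of the epithelium, it was 17625 to 19843 against 17103 to 19556. For 7 markers of glands, whose cells are rich in ER, it was 21514 to 24788 against 21981 to 26382, and for 4 markers of plasma cells 792 to 946 against 845 to 982. For 5 markers of ciliated respiratory cells it was 3027 to 3587 against 3471 to 3822, and the mean of these markers differed by -0.13. All 5 were lower (median -0.16), 3 of them at an unadjusted limma p under 0.05, where 4.07% of all probe sets tested were lower. Tekt1, a tektin of cilia, was at -0.19 without overlap (limma adjusted p = 0.405) and Foxj1 at -0.16. The part of these cells in the members' differences was not tested. Progenitor markers (2268 to 2787 against 2356 to 2788), horizontal basal cell markers (2738 to 3128 against 2766 to 3772) and muscle markers (1792 to 2105 against 1966 to 2296) overlapped as well. No value of any marker was at 0, and 0 of these markers were called by limma.

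Across the 10 arrays, the gene whose signal followed Ric8b most closely among 21587 probe sets with 1 symbol was Adcy3, the adenylyl cyclase of odor transduction, at a Pearson correlation of 0.975. Adcy3 stood at 12.33, 12.12, 12.35 and 12.26 on H2be-GF arrays 1 to 4 and between 12.29 and 12.40 in WT, so that H2be-GF 2 was lowest for both. Its difference was -0.10 (SE 0.06, limma adjusted p = 0.698), and its SD was 0.106 (n = 4) in H2be-GF against 0.0431 (n = 6) in WT. Next to Ric8b were also Hnrnpf (0.970) and Akr1a1 (0.964). The genes nearest to Rtp1 were Wrap53 (0.957), C130074G19Rik (0.952) and Maf1 (0.948). Those of Hspa5 were Fnbp1l (0.965), Ap3m1 (0.948) and Gsto2 (0.934), and those of Calr Zfp869 (0.986), Fxyd6 (0.966) and Sh3pxd2a (0.931). For Rtp2 they were Mir181a-2 (0.969), Olfr228 (0.960) and Gm10229 (0.957), for Reep1 Socs5 (0.943), Vmn1r11 (0.940) and Olfr1447 (0.940), and for Reep6 Ptpn23 (0.906), Norad (0.873) and Spink7 (0.869). Each is the best of many over few arrays, which share processing and normalization, and is given as a description.

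**Figure D3:**
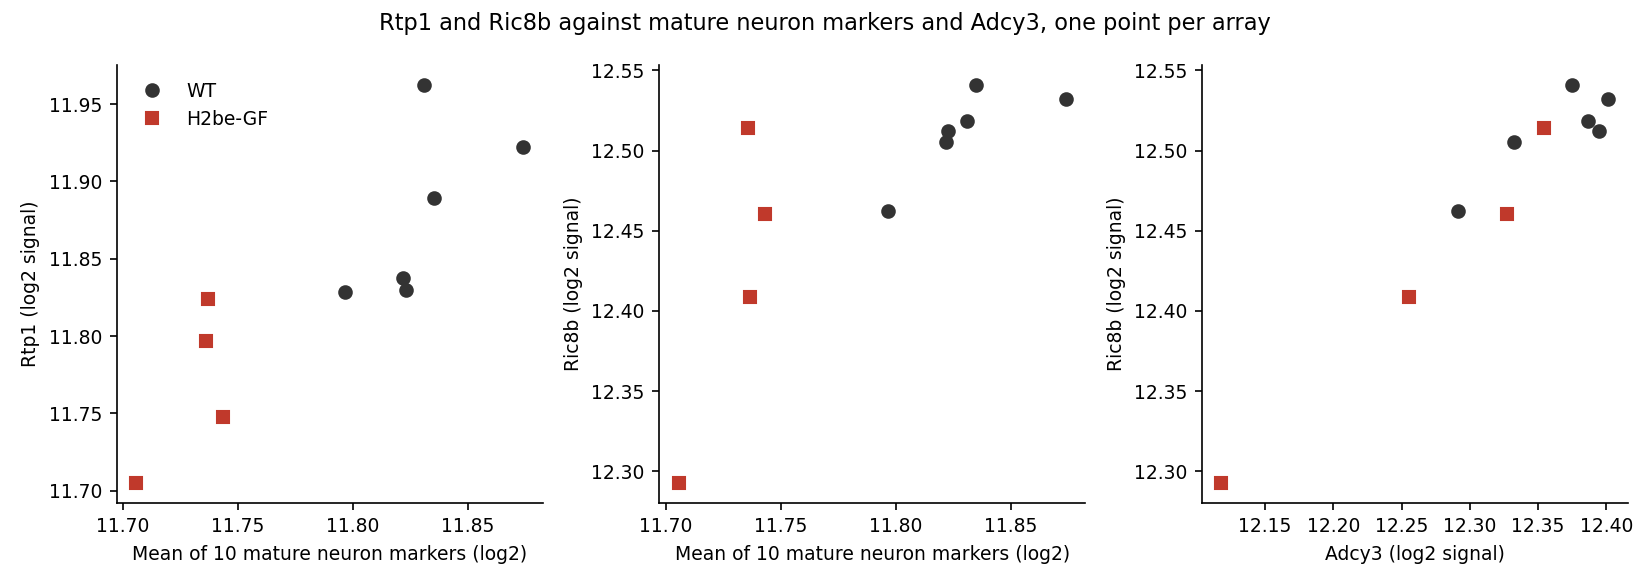
Log2 signal of Rtp1 (left) and Ric8b (middle) against the mean of 10 mature neuron markers, and of Ric8b against Adcy3 (right), with 1 point per array for WT (dark circles) and H2be-GF (red squares). All H2be-GF arrays lie left of all WT arrays on the marker axis, and the array H2be-GF 2 is lowest in all 3 panels.

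Among themselves the members moved together only loosely. Of the 21 pairs, the highest correlation of the unadjusted signals was that of Rtp1 and Ric8b (Pearson r = 0.735, permutation p = 0.0121, adjusted 0.255 over the pairs, Spearman rho = 0.794, permutation p = 0.00840, adjusted 0.176, n = 10). It was 0.550 without the 2 arrays farthest from the median of Rtp1 and 0.448 once the means of genotype and Xist set were removed. Hspa5 and Calr, the genes that share the ER stress element, followed (r = 0.703, permutation p = 0.0252, adjusted 0.265, rho = 0.612, permutation p = 0.0684, adjusted 0.474, n = 10), with 0.689 without the 2 arrays farthest from the median of Hspa5 and 0.630 without genotype and set. With those means removed the order changed, and Ric8b and Hspa5 came first at 0.666 (0.433 before, permutation p = 0.220, adjusted 0.685, rho = 0.576, permutation p = 0.0904, adjusted 0.474), then Hspa5 and Calr, then Reep6 and Calr at 0.603. None of the 21 passed the adjustment. The relatives Rtp1 and Rtp2 gave r = 0.253 (permutation p = 0.476, adjusted 0.910, rho = 0.333, permutation p = 0.348, adjusted 0.853), and Reep1 and Reep6 r = -0.0802 (permutation p = 0.824, adjusted 0.975, rho = -0.152, permutation p = 0.683, adjusted 0.956). The sets of arrays that differ in Xist hold 5 arrays each, too few for a correlation within them.

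The other genes of receptor export, taken from lists of names that were also drawn up with earlier results known, gave no call either. Limma called 0 of 103 tested. At an unadjusted p under 0.05 were 2 genes above plus 2 below WT, which is 3.88% where all probe sets gave 8.43%. This limma fit shares a single prior variance over bright and dim probe sets alike. The share of these lists with a trended variance was not counted. Genotypes did not overlap for 3 of the 103 (1 higher, 2 lower), and for 2.89% of all probe sets. Of the 6 relatives (Rtp3, Rtp4 and Reep2 to Reep5) 4 were lower, with a median change of -0.06. Rtp3 was at -0.16 (SE 0.12), Rtp4, which interferon raises in many tissues, at -0.11 (SE 0.09), Reep3 at -0.07 (SE 0.07) and Reep4 at 0.07 (SE 0.11). Limma's adjusted p was 0.768 or above for all 6.

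Ric8b acts on the olfactory G protein, and 7 genes of that group were tested with a median change of 0.03. Gnal, the alpha subunit that RIC8B attends, was at 11.02 ± 0.14 (SD, n = 4) against 10.96 ± 0.12 (SD, n = 6), a difference of 0.06 (SE 0.08, limma adjusted p = 0.892). Gng13, a gamma subunit of olfactory cilia, was at -0.07 (SE 0.09). Gng7, another gamma subunit, was at 0.15 (SE 0.07), the 1 gene of the group under 0.05 before adjustment (limma adjusted p = 0.587).

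Of 27 further ER chaperones and folding enzymes, 12 were higher and 15 lower, with a median of -0.01. Dnajb9, an HSP40 partner of HSPA5 that is induced by ER stress, stood at 1.13-fold of WT, with 10.71, 10.93, 10.74 and 10.83 in H2be-GF against 10.48 to 10.71 in WT. Its genotypes did not overlap, and its limma adjusted p was 0.508 (log2 difference 0.18, SE 0.07). Hsp90b1, the ER form of HSP90, was at -0.01 (SE 0.07) and Canx, the membrane-bound partner of calreticulin, at 0.06 (SE 0.06), a pair named with their values already known. Calr4, a relative of Calr, was at -0.37 (SE 0.19, limma adjusted p = 0.636) but dim, with a mean of 5.94. Cnpy2 was at -0.10 (SE 0.07), and Txndc5, a disulfide isomerase, at -0.11 (SE 0.07).

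The unfolded protein response, tested at 13 genes, had a median of -0.03 and 0 genes under 0.05 before adjustment. Ddit3, which codes for the stress factor CHOP, was at -0.20 (SE 0.10), Ppp1r15a at -0.13 (SE 0.08), Trib3 at -0.18 (SE 0.12) and the sensor Atf6 at 0.10 (SE 0.07), all with limma adjusted p of 0.647 or above. Atf5, a factor that links the response to receptor expression in these neurons, was at -0.07 (SE 0.07), a gene named with its value already known. Of 14 genes of ER-associated degradation 11 were lower (median -0.03), with Sel1l, an adaptor of the degradation complex, at 0.10 (SE 0.07), and Ube2g2, a ubiquitin-conjugating enzyme, at -0.10 (SE 0.07). Edem2 was at -0.10 (SE 0.07) and Vcp at -0.06 (SE 0.06). Of 19 genes of the COPII coat and ER exit 12 were higher (median 0.01), with Sec24a, a cargo-binding coat subunit, at 0.12 (SE 0.07), Sec13 at -0.09 (SE 0.06), Sec24b at 0.08 (SE 0.07) and Preb at -0.05 (SE 0.06).

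Among 8 genes that shape the ER membrane, as REEP proteins do, the median was -0.05. Rtn1, a reticulon of neurons, was at 12.24, 12.04, 12.22 and 12.16 in H2be-GF and from 12.25 to 12.35 in WT, without overlap (difference -0.14, SE 0.06, limma adjusted p = 0.547). Ckap4 was at -0.20 (SE 0.10), Spast, which severs microtubules and is mutated like REEP1 in hereditary spastic paraplegia, at 0.12 (SE 0.07), and Atl1 at -0.09 (SE 0.09). Of 9 cytosolic chaperones (median 0.01), Hspa2, an HSP70 protein, stood at 0.855-fold of WT without overlap, with 8.58, 8.66, 8.64 and 8.81 in H2be-GF against 8.83 to 8.94 in WT (difference -0.23, SE 0.06, limma adjusted p = 0.335). It had the smallest p of the 103 genes on these pathway lists. Hsp90aa1 was at -0.11 (SE 0.06), Hspa1a at 0.15 (SE 0.08) and Dnajb1 at 0.12 (SE 0.07).

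Genes chosen by sequence rather than name gave no call either, though most of them were genes already counted above. Of the 37 genes whose promoter window holds the ER stress element, 21 were tested, among them Hspa5, Calr, Hsp90b1, Canx, Pdia6, Dnajc3, Creld2, Syvn1 and Adcy3. Limma called 0, with 1 under 0.05 before adjustment (Tdrd9, at 0.24, limma adjusted p = 0.562, named with its value already known). Of the 21, 12 were members or on the lists above. The median change was 0.02 over the 21, 0.04 without Hspa5 and Calr, and 0.04 over the 9 that were neither members nor on those lists.

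**Figure D4:**
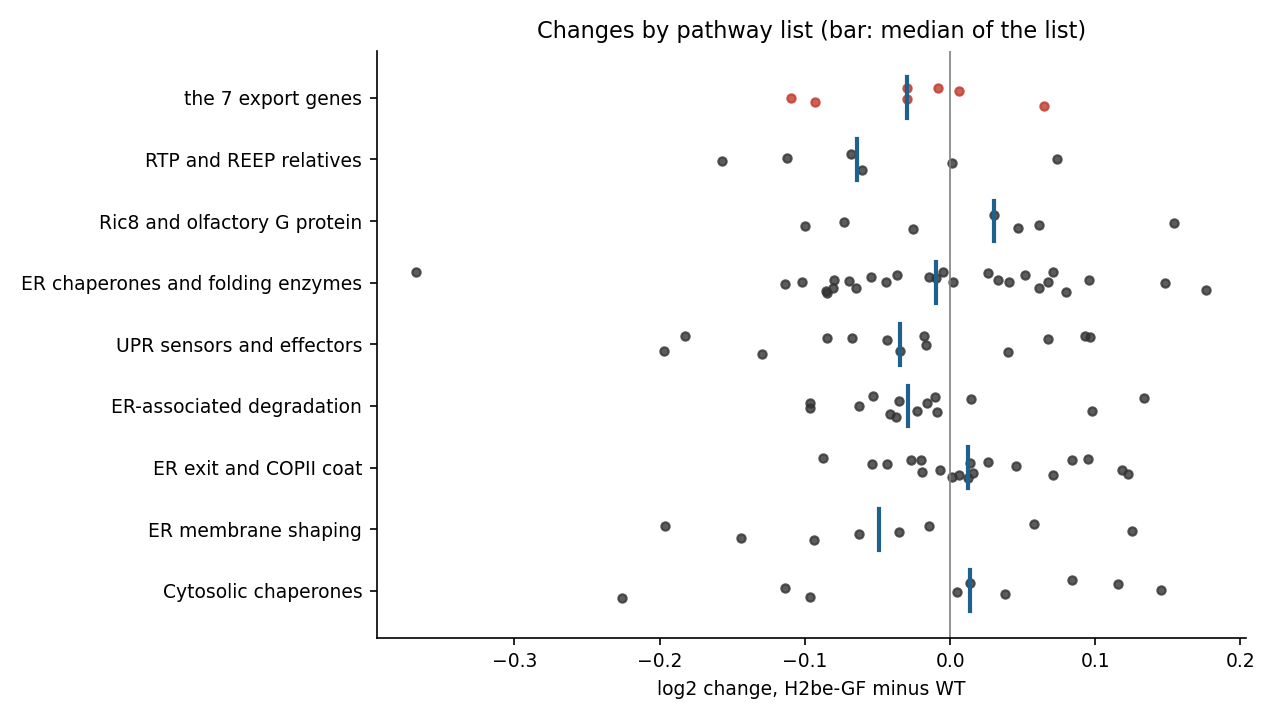
Log2 change (H2be-GF minus WT) of each tested gene, with 1 row per list and a blue bar at the list's median; the 7 genes described here are in red and vertical scatter within a row has no meaning. The medians of the pathway lists lie between -0.06 and 0.03, and the outlying point at -0.37 is the dim gene Calr4.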

How the data were processed

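Gene expression in MOE of 4 H2be-GF and 6 WT pools was read on Mouse Gene ST arrays (Affymetrix, version 1.0). The authors used Expression Console (IterPLIER summaries, sketch-quantile normalization) and deposited log2 values (0 to 14.2). For these tools the version, and for the annotation the genome build, is not given in the sources used here. Quantile normalization hides a shift shared by most genes, and IterPLIER sets dim probe sets near 0, which bears on no member. Names came from the platform annotation (21789 with 1 symbol, 1621 with several, 12146 with none), updated by Entrez ID with a GRCm38.p6 RefSeq table (21698 matched). The genotypes were compared by limma 3.58.1 under R 4.3.3 (no covariate, two-sided) on 23194 probe sets with a symbol and a mean above 5, with Benjamini-Hochberg adjustment at 0.05, a procedure also tested on simulated data. "Called" means passing that threshold. The scale set by mature neuron markers and the list of genes with the ER stress element were added after seeing the data. Exact permutation tests ran over all 210 splits, and tests of correlation drew 100000 permutations. Lists took 1 probe set per gene, the brightest. Named genes were all members, up to 4 per pathway list and 2 per marker list with the smallest p, and the 3 nearest by correlation. The members and lists were chosen with earlier results of these data known. The number of arrays limits the precision.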

Additional observations from a re-analysis of the deposited data

Results flagged for a closer look

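Among the 7 members and the named genes of the lists, 114 sets of values (a gene in 1 genotype) were searched for an array far from the others by Dixon's test, which flags about 1 in 20 by chance. It flagged 4, none of them in a member. Rtp3 was at 8.09 on WT 6, with the next WT array at 8.47. Stmn4 was at 10.95 on WT 1, with the next at 10.78. Tekt1 was at 9.33 on WT 2, with the next at 9.44, and Muc2 was at 10.85 on H2be-GF 3, with the next H2be-GF array at 10.97.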

How the results depend on the processing

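No member and no gene of the pathway lists was called by limma under any other processing, where adjusted p-values of members ran from 0.482 to 1.00. Rtp1 (-0.15 to -0.01) and Reep1 (0.011 to 0.16) kept their sign throughout. On the scale set by mature neuron markers, added after seeing the data, which moved the median of all probe sets to 0.11, the sign turned for Rtp2 (0.070), Reep6 (0.092), Ric8b (0.0068) and Hspa5 (0.070). Reep6 also turned with the replicate block (0.018) and within the arrays high in Xist (0.016), and Calr with array weights (-0.0093) and within the arrays low in Xist (-0.076). When 1 array was left out, Reep6 ran from -0.046 to 0.033, Calr from -0.048 to 0.046, Rtp1 from -0.13 to -0.089, Ric8b from -0.12 to -0.051, Rtp2 from -0.057 to -0.014, Hspa5 from -0.059 to -0.013 and Reep1 from 0.023 to 0.11. The replicate numbers were not taken to pair the arrays, since same-numbered deviations correlated at 0.530, 0.219, -0.423 and 0.261 and only H2be-GF 1 was closest to its own number. With the replicate number as a block Rtp1 stood at -0.12 and Ric8b at -0.098. The median of the RTP and REEP relatives was 0.06 within the arrays low in Xist. The count of calls over all probe sets was 20, and it was 5 with that block, 114 with a trended robust variance, 36 with a filter at a mean of 7, 11 without H2be-GF 1, 13 without H2be-GF 3, and 0 within either Xist set, with 1113 and 1012 at an unadjusted p under 0.05. The cause of these moves was not tested.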
